A study of Arabidopsis thaliana with 18 samples.

Results

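The interaction of ref2-1 with loss of MED5 asks, for each transcript, whether the ref2-1 mutation changes it by the same factor in plants that lack MED5 as in plants that have it. It was read from 12 of the 18 RNA-seq libraries of an Arabidopsis thaliana series, as the difference between ref2-1 med5 and med5 minus the difference between ref2-1 and wild type, on a log2 scale. All 19651 genes that passed a filter on low counts were tested. The genotypes were ref2-1 med5a-1 med5b-1 (called ref2-1 med5), med5a-1 med5b-1 (called med5), ref2-1 and wild type, with 3 libraries each and all in Columbia-0. Every library held polyadenylated RNA of 5 whole rosettes pooled from different pots, 18 days old, grown in long days and taken 6.5 hours after dawn. Gene counts per library ran from 21389804 to 28355294, so that 1 CPM, a count scaled to library size, stood for at least 21.39 counts. Levels are CPM, scaled to the library and not to gene length, and so compare genotypes for 1 gene at a time. The labels number the libraries but do not say whether they were grown together, so a p-value here reflects library-to-library variation alone, which may be technical.

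CYP83A1, the product of REF2, is a cytochrome P450 on the way to aliphatic glucosinolates, the methionine-derived defence compounds of crucifers. Plants without it also make less phenylpropanoid product such as sinapate esters. Phenylalanine ammonia-lyase (PAL), the entry enzyme of that pathway, is turned over with the help of Kelch-domain F-box proteins. MED5A and MED5B are subunits of Mediator, the complex between transcription factors and RNA polymerase II, and are known to hold phenylpropanoid genes down in rosettes. The comparison bears on which transcript responses to loss of CYP83A1 differ when MED5 is missing.

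The targeted genes were low where the labels say so. CYP83A1 (AT4G13770) had 155, 142 and 121 CPM in ref2-1 med5, against 472, 409 and 528 CPM in med5. It had 124, 117 and 129 CPM in ref2-1, against 347, 402 and 465 CPM in wild type. Neither pair overlapped, and the ref2-1 change was of like size in both, with an interaction of −0.04 ± 0.17 (log2 ± SE, adjusted p = 0.919). MED5B (AT2G48110) averaged 8.15 ± 0.449 CPM in ref2-1 med5 and 6.72 ± 0.380 CPM in med5, and 28.01 ± 2.50 CPM in ref2-1 and 24.6 ± 1.04 CPM in wild type (SD, n = 3 each). MED5A (AT3G23590) averaged 26.9 ± 3.07 CPM in ref2-1 med5 and 31.8 ± 2.40 CPM in med5, and 39.4 ± 3.78 CPM in ref2-1 and 49.8 ± 3.58 CPM in wild type (SD, n = 3 each). Both were called lower in med5 than in wild type (log2 −1.87 and −0.65, adjusted p = 2.5e-08 and 0.0049). Counts over a whole gene do not show whether the transcript that remains is functional.

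The interaction was called for 200 genes (1.02% of those tested) at an adjusted p under 0.05, in edgeR's quasi-likelihood test with Benjamini-Hochberg adjustment over all tested genes. It was positive for 113 genes (0.575%), whose level in ref2-1 med5 was above what the separate ref2-1 and med5 changes add up to, and negative for 87 (0.443%). By comparison, ref2-1 med5 against med5 called 3949 genes (20.1%), ref2-1 against wild type 5541 (28.2%) and med5 against wild type 186 (0.947%, of which 0.468% higher and 0.478% lower). The response to ref2-1 was thus broad in both backgrounds and the called difference between backgrounds small in number. Of the genes called in ref2-1 against wild type, 87.5% had the same sign in ref2-1 med5 against med5, which shares no library with it. Their median change was 0.27 in ref2-1 med5 against med5 and 0.50 in ref2-1 against wild type, taken in the direction of the call. Genes chosen the other way round had a median of 0.43 in ref2-1 med5 against med5 and 0.30 in ref2-1 against wild type, so that in each case the comparison that chose the genes had the larger median. In RNA of whole rosettes, fewer cells of a type and less RNA per cell cannot be told apart.

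The number of calls moved strongly with single libraries. Of the wild type libraries, leaving out replicate 1 gave 39, replicate 2 gave 60 and replicate 3 gave 345 calls. Of the ref2-1 libraries, leaving out replicate 1 gave 91, replicate 2 gave 253 and replicate 3 gave 157. Leaving out med5 replicate 1 gave 79, med5 replicate 2 gave 650 and med5 replicate 3 gave 75. Of the ref2-1 med5 libraries, leaving out replicate 1 gave 96, replicate 2 gave 39 and replicate 3 gave 441. All 200 genes kept their sign in each of these 12 fits, which share most libraries with the fit that chose them, so this is in part built in. Between 39 and 198 of the 200 stayed called. There were 39 without wild type replicate 1 or ref2-1 med5 replicate 2, and 198 without med5 replicate 2. The median SE of the interaction over all tested genes was 0.15 on the log2 scale, and 3711 genes had an unadjusted p under 0.05. In data simulated at these depths the test recovered 31.3% of 1.5-fold, 76.1% of 2-fold and 90.9% of 4-fold interactions.

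In 6 of the 200 genes wild type was called against each mutant, and no pair of mutants was called. Below, wild type alone differing means this pattern of calls, which does not show that the mutants had equal levels. These 6 genes are described on their own further on, and the other 194 comprised 108 positive and 86 negative genes. Most often the ref2-1 change passed the test in plants with MED5 and not in med5, in 97 genes, of which 40 were higher and 57 lower in ref2-1 than in wild type. In 35 genes it passed against med5 alone. In 20 genes it passed in both backgrounds with the same sign and was smaller in med5, and in 4 it was larger. In 38 genes the called changes had opposite signs. These classes rest on the same libraries as the interaction and are a description. Over all tested genes, too, more were called with MED5 (5541) than without it (3949), and 2145 were called in both. Of those 2145 genes, 2103 had the same sign, and in 1218 of these the change was smaller without MED5. The ref2-1 libraries stood apart, with no call among the other genotypes, in 18 genes upward and 36 downward. The ref2-1 med5 libraries did so in 8 genes upward and 8 downward, and med5 in 2 upward and 1 downward. Against ref2-1, ref2-1 med5 was called lower for 73 of the 86 negative genes (5.46% of all tested genes) and higher for 98 of the 108 positive genes (5.67%). Both genotypes are terms of the interaction that chose these genes, so these counts are in part built in. In 101 of the 194 genes ref2-1 med5 was not called against wild type. Over all tested genes 4672 of 19651 (23.8%) were called there and the others were not. Absence of that call was thus less frequent among the 194 than over all tested genes.

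**Figure D1:**
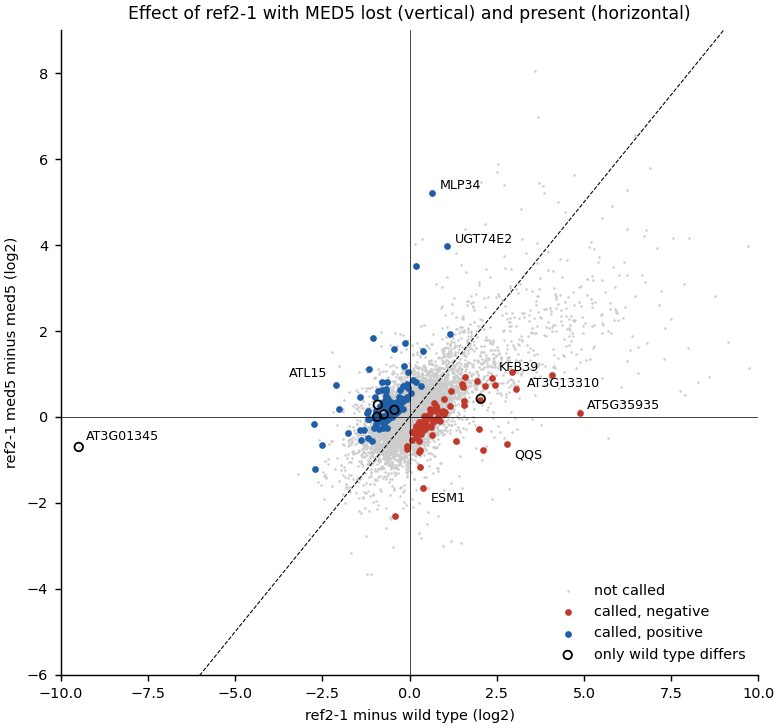
Each point is 1 tested gene, with its log2 change in ref2-1 against wild type on the horizontal axis and in ref2-1 med5 against med5 on the vertical axis; the diagonal marks equal changes. The 86 negative genes lie below the diagonal and the 108 positive genes above it, and the 6 genes in which wild type alone differs are set apart.

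The promoters of 3 genes described next are shown because their transcripts were lower in med5 than in wild type and rose less with ref2-1 without MED5. Each run is the 250 bases before the annotated start in RefSeq TAIR10.1, read 5′ to 3′ toward the gene. Capitals mark a match on either strand to a motif searched, the evening element AAAATATCT in AT3G13310 and the W-box core TTGAC in KFB39 and MYB4.
AT3G13310, chr3:4311630-4311879, minus strand: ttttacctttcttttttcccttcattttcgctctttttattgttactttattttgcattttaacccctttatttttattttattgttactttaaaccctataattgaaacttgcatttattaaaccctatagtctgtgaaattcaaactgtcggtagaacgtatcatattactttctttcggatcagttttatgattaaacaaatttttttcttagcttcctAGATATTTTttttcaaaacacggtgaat
KFB39, chr2:18253360-18253609, plus strand: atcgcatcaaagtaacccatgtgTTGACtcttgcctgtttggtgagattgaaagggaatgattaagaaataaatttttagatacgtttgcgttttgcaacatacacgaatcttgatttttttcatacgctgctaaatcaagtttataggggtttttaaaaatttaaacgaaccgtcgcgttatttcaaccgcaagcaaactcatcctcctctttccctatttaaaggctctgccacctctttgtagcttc
MYB4, chr4:18053110-18053359, plus strand: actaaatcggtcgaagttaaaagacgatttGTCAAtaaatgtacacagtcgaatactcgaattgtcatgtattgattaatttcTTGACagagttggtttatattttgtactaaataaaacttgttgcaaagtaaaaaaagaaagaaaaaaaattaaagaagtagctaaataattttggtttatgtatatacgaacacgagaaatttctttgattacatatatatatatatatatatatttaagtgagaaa
Over 19275 promoters of tested genes, 44.7% held TTGAC and 2.51% held AAAATATCT. Of 83 promoters of negative genes, 55.4% held TTGAC and 7.23%, or 6 promoters, held AAAATATCT. Of 107 promoters of positive genes, 49.5% and 1.87% did. A match describes the letters and is not a binding site.

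The 3 genes share a form in which med5 was below wild type and the ref2-1 change was smaller without MED5 than with it. AT3G13310, which encodes a DnaJ-domain protein, had 3.88, 5.05 and 3.77 CPM in ref2-1 med5, against 2.31, 2.995 and 2.81 CPM in med5. It had 114, 119 and 109 CPM in ref2-1, against 12.8, 12.7 and 15.7 CPM in wild type. No genotype overlapped another, with ref2-1 far above wild type and both genotypes without MED5 below it. The ref2-1 change was 1.57-fold without MED5 and 8.30-fold with it (interaction −2.40 ± 0.18, adjusted p = 2.3e-05). KFB39 (AT2G44130), a Kelch F-box protein that targets PAL, had 3.92, 3.31 and 2.35 CPM in ref2-1 med5, against 1.80, 1.73 and 2.22 CPM in med5. It had 64.0, 69.3 and 64.2 CPM in ref2-1, against 11.4, 12.2 and 12.4 CPM in wild type. The order of genotypes was the same and again none overlapped, with a ref2-1 change of 1.67-fold without MED5 and 5.47-fold with it (interaction −1.71 ± 0.20, adjusted p = 0.00167). MYB4 (AT4G38620), a repressor of phenylpropanoid genes, had 16.2, 15.1 and 14.7 CPM in ref2-1 med5, against 14.96, 13.4 and 14.1 CPM in med5. It had 44.9, 44.2 and 39.9 CPM in ref2-1, against 22.5, 20.6 and 24.9 CPM in wild type. Its first pair overlapped and its second did not (interaction −0.81 ± 0.12, adjusted p = 0.00614). In med5 against wild type the log2 changes were −2.34 for AT3G13310, −2.65 for KFB39 and −0.68 for MYB4, all called.

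KFB39 and MYB4 were the called members among 8 tested Kelch F-box genes and MYB repressors. Both were called negative, as were 0.443% of all tested genes. The median interaction of the 8 genes was −0.55, against 0.0006 over all tested genes. KFB50, another F-box protein of PAL, had 54.9, 43.2 and 42.1 CPM in ref2-1 med5, against 31.2, 49.1 and 39.96 CPM in med5. It had 110.2, 124 and 114 CPM in ref2-1, against 54.5, 58.4 and 67.0 CPM in wild type. The first pair overlapped and the second did not, but the interaction of −0.73 missed the threshold (adjusted p = 0.117). KFB20 averaged 14.2 CPM in ref2-1 med5 and 7.96 CPM in med5, and 12.1 CPM in ref2-1 and 8.96 CPM in wild type (interaction 0.40, adjusted p = 0.492), and KFB01 had an interaction of −0.70 (adjusted p = 0.465). The ref2-1 change was called higher for 2 of the 8 genes without MED5 (10.5% of all tested genes) and for 5 with it (15.1%).

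Other negative genes were high in ref2-1 while ref2-1 med5 stayed near wild type. LZF1 (AT1G78600), a B-box protein of light signalling, had 20.5, 20.5 and 20.4 CPM in ref2-1 med5, against 15.9, 16.9 and 17.8 CPM in med5. It had 49.6, 61.8 and 50.6 CPM in ref2-1, against 16.4, 19.5 and 18.7 CPM in wild type. Neither pair overlapped, and ref2-1 lay far above all other libraries (interaction −1.29 ± 0.13, adjusted p = 0.000497). QQS (AT3G30720), known for its part in carbon and nitrogen allocation, had 4.82, 5.75 and 3.63 CPM in ref2-1 med5, against 5.96, 5.99 and 10.4 CPM in med5. It had 36.1, 42.7 and 53.7 CPM in ref2-1, against 8.30, 5.47 and 5.23 CPM in wild type. Wild type overlapped both genotypes without MED5, and ref2-1 stood above all (interaction −3.44 ± 0.39, adjusted p = 0.00519). AT3G22060, related to receptor kinases, averaged 10.11 ± 1.84 CPM in ref2-1 med5 and 7.75 ± 1.29 CPM in med5, and 42.9 ± 4.81 CPM in ref2-1 and 10.6 ± 1.28 CPM in wild type (SD, n = 3 each), with an interaction of −1.63 ± 0.21 (adjusted p = 0.0039). AT2G39920, of an acid phosphatase family, averaged 1.70 ± 0.398 CPM in ref2-1 med5 and 2.07 ± 0.166 CPM in med5, and 5.10 ± 1.90 CPM in ref2-1 and 1.27 ± 0.324 CPM in wild type (SD, n = 3 each), with an interaction of −2.29 ± 0.41 (adjusted p = 0.0195). AT2G39920 lost its call without wild type replicate 1 or 2, med5 replicate 1 or 3 or ref2-1 med5 replicate 2 (adjusted p of at most 0.069).

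In CAT1 and FLS2 both genotypes without MED5 were already above wild type and overlapped each other. CAT1 (AT1G20630), a catalase that removes hydrogen peroxide, had 35.3, 32.7 and 34.5 CPM in ref2-1 med5, against 32.2, 34.8 and 36.4 CPM in med5. It had 45.4, 47.05 and 48.5 CPM in ref2-1, against 24.1, 27.7 and 27.7 CPM in wild type (interaction −0.84 ± 0.10, adjusted p = 0.00176). FLS2 (AT5G46330), the receptor of bacterial flagellin, had 22.7, 20.4 and 22.2 CPM in ref2-1 med5, against 22.2, 22.5 and 23.6 CPM in med5. It had 26.6, 27.7 and 26.2 CPM in ref2-1, against 15.1, 16.5 and 14.3 CPM in wild type (interaction −0.88 ± 0.10, adjusted p = 0.00163). Both were called higher in med5 than in wild type (log2 0.38 and 0.57, adjusted p = 0.0238 and 0.00169). RPS2 (AT4G26090), an intracellular immune receptor, averaged 8.77 ± 1.27 CPM in ref2-1 med5 and 5.37 ± 1.77 CPM in med5, and 11.4 ± 1.58 CPM in ref2-1 and 2.54 ± 0.0551 CPM in wild type (SD, n = 3 each), with an interaction of −1.45 ± 0.28 (adjusted p = 0.0293). LYK5 (AT2G33580), a receptor of chitin, averaged 4.83 ± 1.05 CPM in ref2-1 med5 and 2.57 ± 0.553 CPM in med5, and 10.05 ± 1.14 CPM in ref2-1 and 1.95 ± 0.165 CPM in wild type (SD, n = 3 each), with an interaction of −1.45 ± 0.27 (adjusted p = 0.0214). HO3 (AT1G69720), a heme oxygenase, averaged 5.12 ± 2.096 CPM in ref2-1 med5 and 2.64 ± 1.23 CPM in med5, and 6.88 ± 2.02 CPM in ref2-1 and 0.398 ± 0.154 CPM in wild type (SD, n = 3 each), with an interaction of −3.13 ± 0.61 (adjusted p = 0.0429). RPS2 lost its call without wild type replicate 1 or 2, med5 replicate 1 or 3 or ref2-1 med5 replicate 1 or 2 (adjusted p of at most 0.107). LYK5 lost its call without wild type replicate 1 or 2, ref2-1 replicate 1, med5 replicate 3 or ref2-1 med5 replicate 1 or 2 (adjusted p of at most 0.0827). HO3 kept its call in 3 of 12 fits that left out 1 library, those without wild type replicate 3, med5 replicate 2 or ref2-1 med5 replicate 3 (adjusted p of at most 0.152 in the others).

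ESM1 (AT3G14210), which steers glucosinolate breakdown toward isothiocyanates, was high in med5 alone. It had 322, 324 and 383 CPM in ref2-1 med5, against 1275, 914 and 1044 CPM in med5. It had 490.0, 339.6 and 508 CPM in ref2-1, against 339.5, 307 and 375 CPM in wild type. The med5 libraries stood above the others, which overlapped (interaction −2.04 ± 0.23, adjusted p = 0.00331). In the series' mutant of CYP83B1, ref5-1, it had 1310.0, 1102 and 1138 CPM in ref5-1 med5, against 597, 891 and 767 CPM in ref5-1. ESM1 was the called member among 7 glucosinolate breakdown genes (0.443% of all tested genes were called negative).

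**Figure D2:**
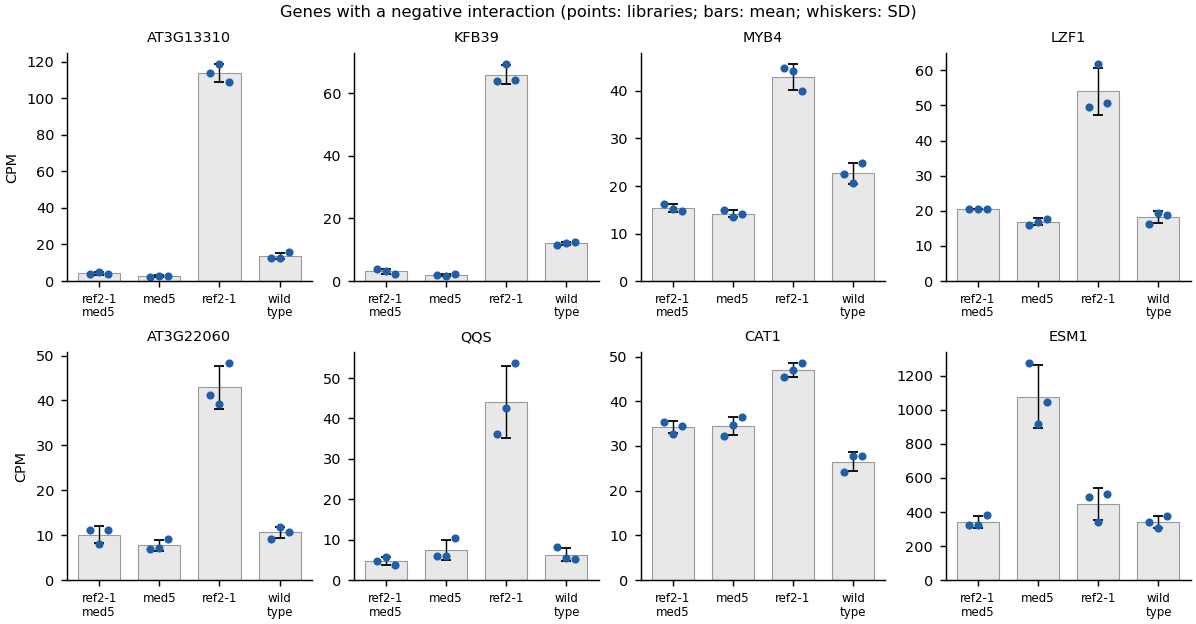
Levels in CPM (vertical axes, from 0) of 8 genes with a negative interaction in 4 genotypes; points are libraries, bars are means and whiskers are SD over 3 libraries. AT3G13310, KFB39, MYB4, LZF1, AT3G22060, QQS and CAT1 are highest in ref2-1, and ESM1 is highest in med5.

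Of the 108 positive genes, 84 were called lower in ref2-1 than in wild type (13.1% of all tested genes were). That change is a term of the interaction that chose these genes, so the count is in part built in. LTL1 (AT3G04290), a GDSL lipase, had 101, 96.6 and 92.9 CPM in ref2-1 med5, against 99.2, 112 and 105 CPM in med5. It had 58.5, 64.5 and 57.1 CPM in ref2-1, against 112, 119 and 109 CPM in wild type. The first pair overlapped and the second did not (interaction 0.79 ± 0.10, adjusted p = 0.00184). CAD4 (AT3G19450), a cinnamyl alcohol dehydrogenase of lignin precursor synthesis, had 171, 170.1 and 189 CPM in ref2-1 med5, against 163, 180.4 and 163 CPM in med5. It had 112, 125 and 113 CPM in ref2-1, against 160.0, 173 and 172 CPM in wild type. The ref2-1 libraries lay below the other 9, which overlapped (interaction 0.60 ± 0.10, adjusted p = 0.0147). LHY (AT1G01060), a morning transcription factor of the clock, averaged 117 ± 5.17 CPM in ref2-1 med5 and 115 ± 7.06 CPM in med5, and 81.6 ± 6.29 CPM in ref2-1 and 122 ± 7.21 CPM in wild type (SD, n = 3 each), with an interaction of 0.61 ± 0.10 (adjusted p = 0.0165). LHY lost its call without wild type replicate 1 or 2 (adjusted p of at most 0.0595). AT4G27570, a glycosyltransferase, averaged 5.10 ± 1.24 CPM in ref2-1 med5 and 8.03 ± 1.53 CPM in med5, and 1.70 ± 0.783 CPM in ref2-1 and 9.91 ± 0.487 CPM in wild type (SD, n = 3 each), with an interaction of 1.85 ± 0.36 (adjusted p = 0.0348). AT4G11211, an uncharacterized protein, averaged 20.8 ± 3.89 CPM in ref2-1 med5 and 15.1 ± 5.15 CPM in med5, and 7.70 ± 1.51 CPM in ref2-1 and 20.4 ± 4.17 CPM in wild type (SD, n = 3 each), with an interaction of 1.87 ± 0.36 (adjusted p = 0.0481). AT1G07450, of an oxidoreductase family, was lower with ref2-1 in both backgrounds, at 2.296 ± 0.397 CPM in ref2-1 med5 and 5.38 ± 0.825 CPM in med5, and 0.954 ± 0.0728 CPM in ref2-1 and 6.26 ± 1.02 CPM in wild type (SD, n = 3 each), and less so without MED5 (interaction 1.48 ± 0.27, adjusted p = 0.0202). AT4G27570 lost its call without wild type replicate 1 or 2, ref2-1 replicate 1, med5 replicate 1 or 3 or ref2-1 med5 replicate 1 or 2 (adjusted p of at most 0.108). AT4G11211 kept its call in 3 of 12 fits that left out 1 library, those without wild type replicate 3, med5 replicate 2 or ref2-1 med5 replicate 3 (adjusted p of at most 0.133 in the others). AT1G07450 lost its call without wild type replicate 1 or 2, ref2-1 replicate 1 or ref2-1 med5 replicate 2 (adjusted p of at most 0.076).

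Among 20 tested phenylpropanoid enzymes, CAD4 and 4CL2 were called positive (0.575% of all tested genes) and ALDH2C4 negative (0.443%). 4CL2 (AT3G21240), a 4-coumarate:CoA ligase, had 19.8, 20.9 and 21.2 CPM in ref2-1 med5, against 19.9, 24.6 and 17.96 CPM in med5. It had 5.95, 6.03 and 5.66 CPM in ref2-1, against 9.79, 9.996 and 11.6 CPM in wild type. Both genotypes without MED5 stood above wild type and overlapped each other, and ref2-1 stood below it (interaction 0.82 ± 0.16, adjusted p = 0.0279). ALDH2C4 (AT3G24503), an aldehyde dehydrogenase that forms ferulate and sinapate, averaged 117 ± 13.3 CPM in ref2-1 med5 and 104 ± 5.63 CPM in med5, and 155 ± 12.4 CPM in ref2-1 and 90.4 ± 6.40 CPM in wild type (SD, n = 3 each), with an interaction of −0.60 ± 0.12 (adjusted p = 0.035). 4CL2 kept its call in 4 of 12 fits that left out 1 library, those without wild type replicate 3, ref2-1 replicate 2, med5 replicate 2 or ref2-1 med5 replicate 3 (adjusted p of at most 0.0922 in the others). ALDH2C4 lost its call without wild type replicate 1 or 2, ref2-1 replicate 1, med5 replicate 1 or 3 or ref2-1 med5 replicate 1 or 2 (adjusted p of at most 0.124). Over the list the median interaction was 0.26, with 16 of 20 values above 0. The members share the 12 libraries and are not independent of each other. The ref2-1 change was called lower for 4 of the 20 without MED5 (9.57% of all tested genes) and for 12 with it (13.1%). It was called higher for 0 without MED5 (10.5%) and 2 with it (15.1%). 4CL1, a paralog of 4CL2, had 275, 246 and 248 CPM in ref2-1 med5, against 268, 339.7 and 272 CPM in med5. It had 98.5, 102 and 85.6 CPM in ref2-1, against 163, 151 and 166 CPM in wild type (interaction 0.56, adjusted p = 0.0628). PAL1 averaged 298 CPM in ref2-1 med5 and 344 CPM in med5, and 202 CPM in ref2-1 and 242 CPM in wild type (interaction 0.05, adjusted p = 0.914). PAL4 averaged 31.6 CPM in ref2-1 med5 and 37.3 CPM in med5, and 3.52 CPM in ref2-1 and 10.8 CPM in wild type (interaction 1.37, adjusted p = 0.153).

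Among 20 tested auxin response genes 3 were called positive (0.575% of all tested genes) and none negative, and 14 had an unadjusted p under 0.05, as did 3711 of all 19651. The median interaction was 0.51, with 19 of 20 values above 0. These members share the 12 libraries and include near-identical SAUR copies, so they are not independent of each other. GH3.5 (AT4G27260), which conjugates auxin and salicylate to amino acids, had 32.9, 30.4 and 26.3 CPM in ref2-1 med5, against 11.6, 16.5 and 11.3 CPM in med5. It had 9.56, 12.4 and 10.99 CPM in ref2-1, against 12.5, 13.2 and 11.03 CPM in wild type. The ref2-1 med5 libraries stood above the other 9, which overlapped (interaction 1.33 ± 0.21, adjusted p = 0.0127). With ref5-1 it was higher still, with 81.5, 105 and 79.5 CPM in ref5-1 med5, against 50.8, 50.4 and 63.1 CPM in ref5-1. IAA19 (AT3G15540), an Aux/IAA repressor, averaged 8.34 ± 0.533 CPM in ref2-1 med5 and 7.24 ± 0.792 CPM in med5, and 4.27 ± 0.343 CPM in ref2-1 and 6.65 ± 0.651 CPM in wild type (SD, n = 3 each), with an interaction of 0.84 ± 0.17 (adjusted p = 0.0302). SAUR24 (AT5G18080), of a family of growth genes with near-identical copies among which reads are split with uncertainty, averaged 6.44 ± 1.02 CPM in ref2-1 med5 and 6.66 ± 0.506 CPM in med5, and 4.11 ± 0.628 CPM in ref2-1 and 9.30 ± 0.890 CPM in wild type (SD, n = 3 each), with an interaction of 1.14 ± 0.20 (adjusted p = 0.0184). IAA19 lost its call without wild type replicate 1 or 2, ref2-1 replicate 1 or 3, med5 replicate 1 or ref2-1 med5 replicate 1 or 2 (adjusted p of at most 0.101). SAUR24 lost its call without wild type replicate 1 or 2 or ref2-1 med5 replicate 2 (adjusted p of at most 0.0678). The ref2-1 change was called lower for 3 members without MED5 (9.57% of all tested genes) and 12 with it (13.1%). It was called higher for 4 without MED5 (10.5%) and 1 with it (15.1%).

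The promoter of GH3.5 is shown as that of a gene higher in ref2-1 med5 than in med5, ref2-1 and wild type, beside LTP6, which ref2-1 lowered with MED5 and raised without it. Capitals mark TTGAC and the auxin response element TGTCTC on either strand in GH3.5, and LTP6 held none of the motifs searched.
GH3.5, chr4:13653329-13653578, plus strand: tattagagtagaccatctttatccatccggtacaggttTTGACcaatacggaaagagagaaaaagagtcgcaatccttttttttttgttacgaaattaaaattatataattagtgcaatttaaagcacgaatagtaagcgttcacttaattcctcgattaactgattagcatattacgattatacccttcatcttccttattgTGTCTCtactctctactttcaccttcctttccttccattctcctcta
LTP6, chr3:2664889-2665138, minus strand: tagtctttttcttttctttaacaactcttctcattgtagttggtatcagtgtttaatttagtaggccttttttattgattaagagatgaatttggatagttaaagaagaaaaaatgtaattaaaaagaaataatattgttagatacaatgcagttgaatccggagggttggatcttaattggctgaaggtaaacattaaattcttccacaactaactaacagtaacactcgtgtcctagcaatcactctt
TGTCTC was in 13.1% of promoters of positive genes, 15.7% of those of negative genes and 10.5% of all. CACGTG was in 9.35%, 7.23% and 7.37%, ACGTG, which every CACGTG contains, in 29%, 26.5% and 23.4%, and TGACG, which can overlap TTGAC, in 17.8%, 16.9% and 19.3%. GCCGCC was in 0 promoters of either kind and 1.97% of all.

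Further positive genes also had ref2-1 med5 above med5 with no overlap, and 4 of them follow. MLP34 (AT1G70850), a major latex protein homolog, had 6.40, 5.13 and 3.81 CPM in ref2-1 med5, against 0.129, 0.253 and 0 CPM in med5. It had 1.94, 0.770 and 1.41 CPM in ref2-1, against 0.682, 0.868 and 1.03 CPM in wild type. The ref2-1 med5 libraries were highest and the med5 libraries lowest (interaction 4.55 ± 0.68, adjusted p = 0.0112). UGT74E2 (AT1G05680), a glucosyltransferase of the auxin indole-butyric acid, had 8.88, 7.53 and 6.12 CPM in ref2-1 med5, against 0.472, 0.548 and 0.395 CPM in med5. It had 3.17, 1.14 and 1.37 CPM in ref2-1, against 0.963, 0.792 and 0.916 CPM in wild type. Neither pair overlapped, with a ref2-1 change of 15.7-fold without MED5 and 2.12-fold with it (interaction 2.89 ± 0.51, adjusted p = 0.0196). MRD1 (AT1G53480) had 9.51, 10.3 and 16.4 CPM in ref2-1 med5, against 1.46, 1.52 and 0.0987 CPM in med5. It had 30.8, 37.2 and 30.3 CPM in ref2-1, against 28.8, 28.1 and 29.9 CPM in wild type. Here med5 was lowest and ref2-1 med5 lay between it and the genotypes with MED5 (interaction 3.32 ± 0.53, adjusted p = 0.0279). MRD1 had 0, 0.0942 and 0.144 CPM in ref5-1 med5, against 0.290, 0.643 and 0.0803 CPM in ref5-1. AT2G05540, a glycine-rich protein, averaged 11.7 ± 3.18 CPM in ref2-1 med5 and 3.57 ± 0.970 CPM in med5, and 3.84 ± 0.996 CPM in ref2-1 and 4.20 ± 0.657 CPM in wild type (SD, n = 3 each), with an interaction of 1.85 ± 0.35 (adjusted p = 0.0293). UGT74E2 lost its call without wild type replicate 1 or 2, med5 replicate 1 or 3 or ref2-1 med5 replicate 2 (adjusted p of at most 0.079). MRD1 lost its call without wild type replicate 1 or 2, ref2-1 replicate 1 or 3, med5 replicate 1 or ref2-1 med5 replicate 2 (adjusted p of at most 0.0945). AT2G05540 lost its call without wild type replicate 1 or 2, ref2-1 replicate 1 or 2, med5 replicate 1 or 3 or ref2-1 med5 replicate 2 (adjusted p of at most 0.0863).

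Of the 38 genes with opposite called changes, 20 were positive and 18 negative. LTP6 (AT3G08770), a lipid transfer protein, had 97.2, 117 and 97.0 CPM in ref2-1 med5, against 78.4, 80.6 and 71.2 CPM in med5. It had 70.6, 70.8 and 72.7 CPM in ref2-1, against 118, 109 and 116 CPM in wild type. Both med5 and ref2-1 lay below wild type, and ref2-1 med5 overlapped wild type (interaction 1.11 ± 0.11, adjusted p = 0.000422). ATL15 (AT1G22500), of the RING ubiquitin ligases, had 2.79, 1.78 and 2.62 CPM in ref2-1 med5, against 0.986, 1.65 and 1.63 CPM in med5. It had 0.476, 0.569 and 0.547 CPM in ref2-1, against 2.29, 2.41 and 2.21 CPM in wild type. Neither pair overlapped (interaction 2.86 ± 0.35, adjusted p = 0.00184). AT5G05960, of a lipid transfer family, averaged 15.1 ± 1.09 CPM in ref2-1 med5 and 9.93 ± 1.91 CPM in med5, and 4.24 ± 0.615 CPM in ref2-1 and 7.97 ± 1.60 CPM in wild type (SD, n = 3 each), with an interaction of 1.51 ± 0.23 (adjusted p = 0.0112). ASPGB1 (AT3G16150), an asparaginase, averaged 11.98 ± 3.28 CPM in ref2-1 med5 and 5.45 ± 2.62 CPM in med5, and 1.68 ± 0.187 CPM in ref2-1 and 3.73 ± 0.488 CPM in wild type (SD, n = 3 each), with an interaction of 2.28 ± 0.44 (adjusted p = 0.0368). AT3G27360, a histone gene with near-identical copies, averaged 5.90 ± 1.56 CPM in ref2-1 med5 and 3.35 ± 0.6 CPM in med5, and 3.51 ± 0.449 CPM in ref2-1 and 5.46 ± 1.45 CPM in wild type (SD, n = 3 each), with an interaction of 1.45 ± 0.32 (adjusted p = 0.0494). ASPGB1 kept its call in 3 of 12 fits that left out 1 library, those without wild type replicate 3, med5 replicate 2 or ref2-1 med5 replicate 3 (adjusted p of at most 0.124 in the others). AT3G27360 kept its call in 3 of 12 fits that left out 1 library, those without wild type replicate 2, med5 replicate 2 or ref2-1 med5 replicate 3 (adjusted p of at most 0.14 in the others).

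The named negative genes of this form changed less. NYC1 (AT4G13250), a chlorophyll b reductase, had 79.6, 75.2 and 82.1 CPM in ref2-1 med5, against 93.2, 89.8 and 93.4 CPM in med5. It had 119, 115 and 125 CPM in ref2-1, against 91.6, 89.8 and 91.8 CPM in wild type. The med5 and wild type libraries overlapped, with ref2-1 above them and ref2-1 med5 below (interaction −0.62 ± 0.08, adjusted p = 0.00282). AT1G75900, of the GDSL lipases, averaged 18.7 ± 0.584 CPM in ref2-1 med5 and 22.04 ± 1.25 CPM in med5, and 31.6 ± 1.53 CPM in ref2-1 and 20.5 ± 1.01 CPM in wild type (SD, n = 3 each), with an interaction of −0.86 ± 0.10 (adjusted p = 0.00163). FER4 (AT2G40300), a ferritin that stores iron, averaged 46.3 ± 0.517 CPM in ref2-1 med5 and 59.4 ± 2.69 CPM in med5, and 53.8 ± 1.79 CPM in ref2-1 and 45.6 ± 4.71 CPM in wild type (SD, n = 3 each), with an interaction of −0.60 ± 0.10 (adjusted p = 0.0171). FER4 lost its call without ref2-1 med5 replicate 2 (adjusted p of 0.0578).

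**Figure D3:**
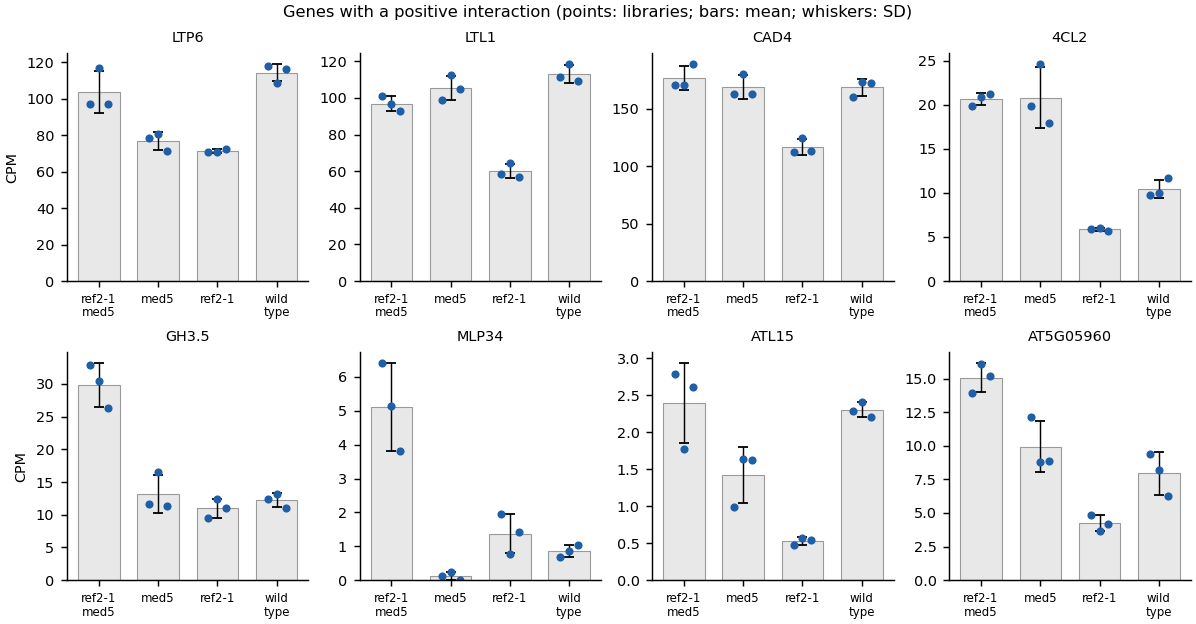
Levels in CPM (vertical axes, from 0) of 8 genes with a positive interaction in 4 genotypes; points are libraries, bars are means and whiskers are SD over 3 libraries. LTL1, CAD4, 4CL2, ATL15 and AT5G05960 are lowest in ref2-1, and GH3.5 and MLP34 are highest in ref2-1 med5.

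Salicylate defence genes had negative interactions with large errors. All 22 tested members were below 0 (49.8% of all tested genes were), with a median of −1.73 and a median SE of 0.724. The members share the 12 libraries and are not independent of each other. Of them, 13 had an unadjusted p under 0.05, as did 3711 of all 19651. Only 1 was called (0.443% of all tested genes were called negative). That gene was SAG101 (AT5G14930), a partner of the immune regulator EDS1, with 15.2, 14.2 and 20.03 CPM in ref2-1 med5, against 10.12, 9.11 and 11.4 CPM in med5. It had 20.5, 21.2 and 20.02 CPM in ref2-1, against 6.86, 7.70 and 6.91 CPM in wild type. Neither pair overlapped (interaction −0.84 ± 0.17, adjusted p = 0.0368). SAG101 kept its call in 2 of 12 fits that left out 1 library, those without med5 replicate 2 or ref2-1 med5 replicate 3 (adjusted p of at most 0.124 in the others). PR1, a marker of salicylate signalling, had 56.5, 124 and 101 CPM in ref2-1 med5, against 5.79, 14.1 and 109 CPM in med5. It had 144, 399.6 and 195 CPM in ref2-1, against 0.160, 0.189 and 0.496 CPM in wild type. Its med5 replicate 3 lay far above the other med5 libraries, and the interaction missed the threshold (adjusted p = 0.0819). PR2, a glucanase of the same response, had 59.3, 61.4 and 138 CPM in ref2-1 med5, against 10.8, 2.57 and 16.5 CPM in med5. It had 174, 233 and 183 CPM in ref2-1, against 0.521, 0.641 and 4.24 CPM in wild type (adjusted p = 0.144). The ref2-1 change was called higher for 8 members without MED5 (10.5% of all tested genes) and for 21 with it (15.1%). In med5 against wild type the median of the list was 0.97, with 0 members called. In ref2-1 med5 against ref2-1 it was −0.41, with 2 members called lower (5.46% of all tested genes) and 0 higher. The median interaction was −1.02 without med5 replicate 3 and between −2.02 and −1.50 in the other fits. The 12 tested cysteine-rich and wall-associated kinases, which include receptors induced in defence, were all below 0 as well. These kinases are not independent of each other either. Their median interaction was −1.55 with a median SE of 0.757, 0 were called, and 7 had an unadjusted p under 0.05. Their medians were 1.40 in med5 against wild type and −0.25 in ref2-1 med5 against ref2-1, with 0 members called in either.

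Aliphatic glucosinolate genes, the pathway of CYP83A1, had 0 interaction calls among 28 tested members, and 6 had an unadjusted p under 0.05. Their median ref2-1 change was 0.82 without MED5 and 0.71 with it, and 21 members were called higher without MED5 (10.5% of all tested genes) and 23 with it (15.1%). The 16 sulfate assimilation and transport genes had medians of 0.63 without MED5 and 0.59 with it, 9 members called higher without MED5 and 11 with it against the same shares, and 0 interaction calls (3 at an unadjusted p under 0.05). LHY was the called member among 14 clock and flowering genes, NYC1 among 10 senescence and starvation genes and FER4 among 10 iron and copper genes. Over all tested genes 1.02% were called. No member was called in edgeR among 20 flavonoid and anthocyanin, 15 indole glucosinolate, 17 jasmonate and 17 rapid stress and touch genes. The same held for 13 cold and abscisic acid, 13 Mediator and 11 heat and protein folding genes. In that order 3, 2, 0, 1, 2, 4 and 5 had an unadjusted p under 0.05, against 3711 of all 19651 tested genes. The medians of these lists ran from −0.80 for jasmonate, with a median SE of 0.98, to 0.41 for cold and abscisic acid.

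**Figure D4:**
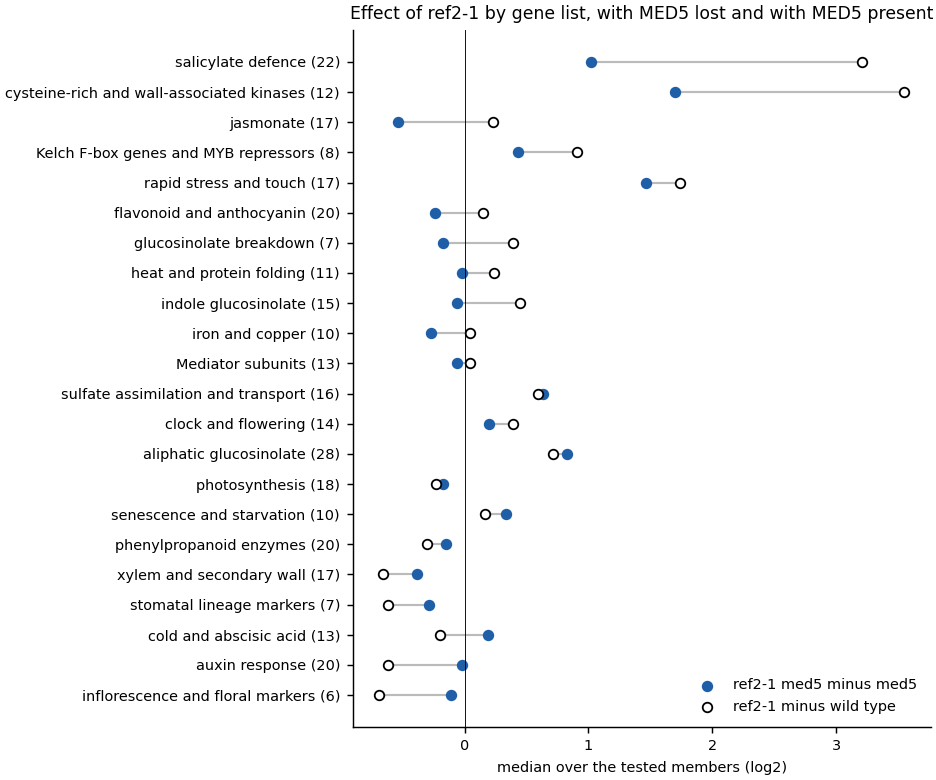
Median log2 change with ref2-1 (horizontal axis) over the tested members of each gene list, without MED5 and with MED5, the list of root markers being left out. The symbols lie far apart for salicylate defence (1.02 without MED5 and 3.21 with it) and close together for aliphatic glucosinolate genes (0.82 and 0.71).

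Markers of tissues and cell types differed among the genotypes too. The 7 stomatal lineage markers summed to 67.0 to 78.8 CPM in ref2-1 med5, 86.6 to 90.6 CPM in med5, 64.5 to 70.6 CPM in ref2-1 and 96.4 to 97.8 CPM in wild type. The 17 xylem and secondary wall genes summed to 169 to 218 CPM in ref2-1 med5, 238 to 258 CPM in med5, 104 to 143 CPM in ref2-1 and 184 to 232 CPM in wild type. The 6 inflorescence and floral markers summed to 8.60 to 10.4 CPM in ref2-1 med5, 7.51 to 12.5 CPM in med5, 3.45 to 3.74 CPM in ref2-1 and 4.62 to 6.34 CPM in wild type. The 18 photosynthesis genes, which mark leaf tissue, summed to 74600 to 78470 CPM in ref2-1 med5, 83630 to 91420 CPM in med5, 68820 to 72450 CPM in ref2-1 and 80240 to 85230 CPM in wild type. The xylem, floral and photosynthesis sums were lowest in ref2-1 without overlap, and the stomatal sums were lowest there with overlap of ref2-1 med5. Of 8 root markers, 7 were under 1 CPM in every genotype. BGLU23, the remaining root marker, had 158, 186 and 165 CPM in ref2-1 med5, against 62.8, 110 and 67.8 CPM in med5. It had 145, 88.8 and 112 CPM in ref2-1, against 96.4, 133 and 156 CPM in wild type. No marker was called for the interaction. In edgeR 3 stomatal, 4 xylem, 1 floral, 1 photosynthesis and 1 root gene had an unadjusted p under 0.05, against 3711 of all 19651. The part of these tissues in the results was not tested.

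In 6 genes wild type alone was called apart among the 4 genotypes of the interaction. The mutants need not be equal, and in AT4G21650 the ref2-1 libraries lay below those of med5 and ref2-1 med5. AT3G01345, an uncharacterized protein, had 0.0902, 0.331 and 0.222 CPM in ref2-1 med5, against 0.557, 0.253 and 0.247 CPM in med5. It had 0.634, 0.502 and 0.228 CPM in ref2-1, against 372, 339 and 300.5 CPM in wild type. It was close to 0 in every mutant, and the interaction came to 8.78 ± 0.84 (adjusted p = 0.000865). In the ref5-1 libraries, which the interaction did not use, it had 0.211, 0.408 and 0.193 CPM in ref5-1 med5, against 0.497, 0.362 and 0.441 CPM in ref5-1. AT3G55240, of unknown function, averaged 12.98 ± 1.19 CPM in ref2-1 med5 and 12.9 ± 0.475 CPM in med5, and 15.6 ± 1.86 CPM in ref2-1 and 29.8 ± 4.08 CPM in wild type (SD, n = 3 each), with an interaction of 0.93 ± 0.16 (adjusted p = 0.0165). AT1G05835, a PHD finger protein, averaged 8.72 ± 1.09 CPM in ref2-1 med5 and 7.14 ± 1.45 CPM in med5, and 6.99 ± 0.526 CPM in ref2-1 and 13.2 ± 0.265 CPM in wild type (SD, n = 3 each), with an interaction of 1.19 ± 0.19 (adjusted p = 0.0123). AT4G21650, a subtilase, averaged 48.9 ± 4.59 CPM in ref2-1 med5 and 46.97 ± 2.60 CPM in med5, and 39.5 ± 5.53 CPM in ref2-1 and 65.8 ± 5.31 CPM in wild type (SD, n = 3 each), with an interaction of 0.80 ± 0.14 (adjusted p = 0.0203). AT3G46320, a histone gene with near-identical copies, averaged 35.1 ± 2.96 CPM in ref2-1 med5 and 31.3 ± 2.32 CPM in med5, and 31.9 ± 2.42 CPM in ref2-1 and 43.1 ± 1.75 CPM in wild type (SD, n = 3 each), with an interaction of 0.60 ± 0.11 (adjusted p = 0.0262). AT1G64380, a DNA-binding protein, was the 1 gene lower in wild type, at 8.99 ± 1.16 CPM in ref2-1 med5 and 6.68 ± 2.13 CPM in med5, and 7.76 ± 1.90 CPM in ref2-1 and 1.89 ± 0.413 CPM in wild type (SD, n = 3 each), with an interaction of −1.62 ± 0.34 (adjusted p = 0.0484).

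Several of these calls did not hold in every fit that left out 1 library. AT3G55240 lost its call without ref2-1 med5 replicate 2 (adjusted p of 0.0643). AT4G21650 lost its call without wild type replicate 1 or 2, med5 replicate 1 or 3 or ref2-1 med5 replicate 2 (adjusted p of at most 0.0781). AT3G46320 lost its call without wild type replicate 1 or 2, ref2-1 replicate 1, med5 replicate 1 or 3 or ref2-1 med5 replicate 2 (adjusted p of at most 0.0944). AT1G64380 kept its call in 4 of 12 fits that left out 1 library, those without wild type replicate 3, ref2-1 replicate 3 or med5 replicate 2 or 3 (adjusted p of at most 0.158 in the others). In AT3G01345, AT3G55240 and AT1G64380 the wild type libraries also lay outside the 6 libraries with ref5-1, and in AT1G05835, AT4G21650 and AT3G46320 they did not. AT4G21650 had 57.4, 73.1 and 55.1 CPM in ref5-1 med5, against 55.8, 80.5 and 80.1 CPM in ref5-1. When the wild type libraries had only to lie outside the range of the 9 mutant libraries, 35 of the 200 genes qualified, 14 higher and 21 lower in wild type, as did 5.65% of all tested genes. In 18 of the 35 they lay outside the ref5-1 libraries as well.

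AT5G35935, an uncharacterized protein with the smallest adjusted p, came close to this form. It had 21.1, 21.7 and 19.5 CPM in ref2-1 med5, against 19.3, 21.1 and 18.01 CPM in med5. It had 16.4, 15.1 and 13.1 CPM in ref2-1, against 0.642, 0.490 and 0.382 CPM in wild type (interaction −4.78 ± 0.19, adjusted p = 1.1e-08). A called difference between ref2-1 med5 and ref2-1 kept it out of the 6 genes. It had 17.4, 18.21 and 21.5 CPM in ref5-1 med5, against 13.5, 18.5 and 23.4 CPM in ref5-1, so that every mutant library was far above wild type.

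**Figure D5:**
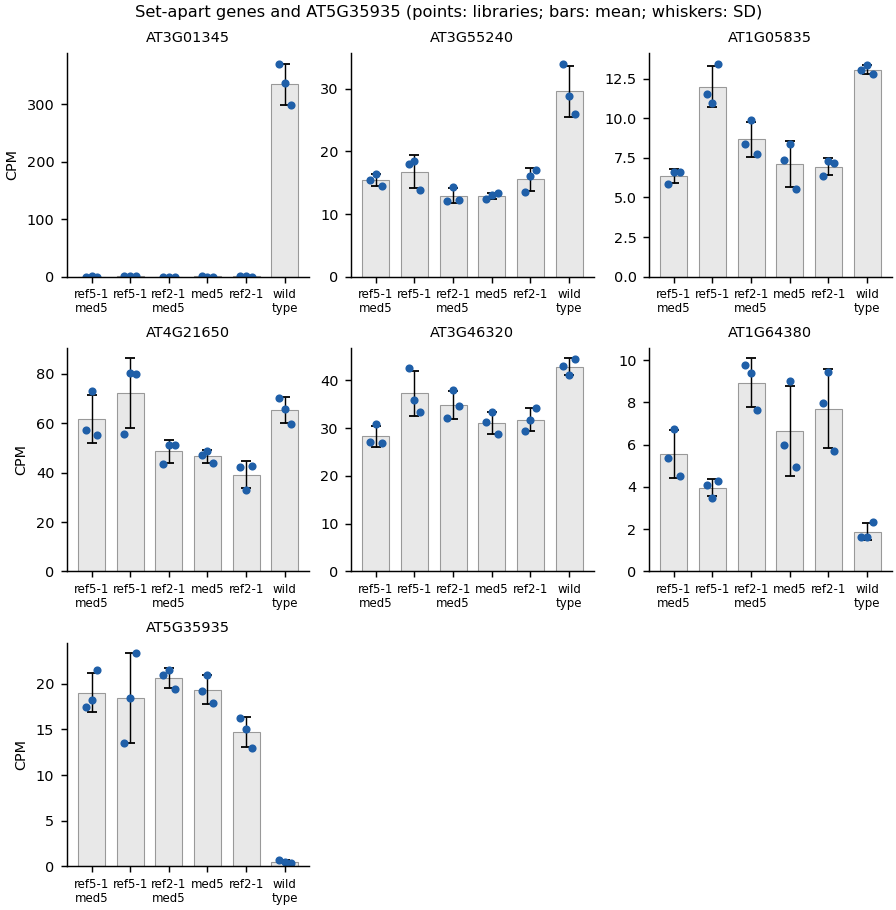
Levels in CPM (vertical axes, from 0) for the 6 genes in which wild type alone differs among 4 genotypes and for AT5G35935, with the genotypes carrying ref5-1 included, which the choice of the 6 genes did not use; points are libraries, bars are means and whiskers are SD over 3 libraries. AT3G01345 is close to 0 in every mutant, AT4G21650 in ref5-1 overlaps wild type, and AT5G35935 is close to 0 in wild type.

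The ref5-1 genotypes show MED5 loss in 6 libraries that the interaction did not use. Their difference is the change with MED5 loss in 1 background and is not an interaction. Between ref5-1 med5 and ref5-1, 6.02% of 19365 tested genes were called, 2.98% higher and 3.04% lower. Of 85 tested negative genes 19 were lower and 4 higher in ref5-1 med5, and of 107 positive genes 14 were higher and 3 lower. Their median log2 changes were −0.13 and 0.05. AT3G13310 had 2.59, 2.39 and 2.02 CPM in ref5-1 med5, against 67.7, 56.7 and 69.6 CPM in ref5-1 (log2 −4.79, adjusted p = 3.4e-07). KFB39 had 2.43, 2.67 and 1.93 CPM in ref5-1 med5, against 70.5, 52.5 and 72.4 CPM in ref5-1 (log2 −4.78, adjusted p = 2.2e-06). MYB4 had 15.4, 15.2 and 14.4 CPM in ref5-1 med5, against 40.9, 32.7 and 31.9 CPM in ref5-1 (log2 −1.23, adjusted p = 0.000598). None of the 3 overlapped. LZF1, the light signalling gene, had 14.5, 12.8 and 15.98 CPM in ref5-1 med5, against 41.1, 33.1 and 38.2 CPM in ref5-1 (log2 −1.39, adjusted p = 0.000389). QQS had 2.11, 2.39 and 1.93 CPM in ref5-1 med5, against 2.19, 2.41 and 1.16 CPM in ref5-1 (log2 0.16, adjusted p = 0.789), and CAT1 had 28.9, 32.2 and 30.3 CPM in ref5-1 med5, against 23.4, 31.2 and 36.1 CPM in ref5-1 (log2 0.01, adjusted p = 0.982). These last 2 pairs overlapped. Among positive genes, 4CL2 had 27.1, 24.3 and 27.9 CPM in ref5-1 med5, against 9.15, 9.56 and 10.7 CPM in ref5-1 (log2 1.43, adjusted p = 0.000185). GH3.5 was higher in ref5-1 med5 than in ref5-1 (log2 0.69, adjusted p = 0.0188). LTP6, also a positive gene, had 62.3, 63.8 and 60.1 CPM in ref5-1 med5, against 121, 98.9 and 92.5 CPM in ref5-1 (log2 −0.75, adjusted p = 0.00635). In med5 against wild type LTP6 was lower too (log2 −0.57, adjusted p = 0.00213) and 4CL2 higher (log2 0.99, adjusted p = 0.000566). AT3G13310, KFB39 and MYB4 were lower there, as given above. LZF1 (log2 −0.11, adjusted p = 0.633) and GH3.5 (log2 0.11, adjusted p = 0.788) were not called there. Leaving out 1 of the 6 libraries gave 10 to 26 lower negative genes, while 1.12% to 3.66% of all tested genes were lower. There were 10 without ref5-1 med5 replicate 2 (1.12%) or ref5-1 replicate 2 (1.52%), 11 without ref5-1 med5 replicate 3 (1.69%) and 12 without ref5-1 replicate 3 (1.74%). It gave 6 to 15 higher positive genes, while 0.686% to 4.82% of all were higher. There were 6 without ref5-1 med5 replicate 2 (0.686%), and 8 without ref5-1 replicate 2 (0.955%) or replicate 3 (0.944%). In ref5-1 med5 replicate 1, reads with several alignments came to 25.3% of the sum of all lines of the table, against 3.71% and 6.02% in the other 2 libraries of that genotype. Without it 16 negative genes were lower (2.56%) and 13 positive genes higher (4.82%).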

How the data were processed

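RNA was sequenced from polyadenylated, stranded libraries. The deposited values are raw counts of reads per gene, which the authors made with Trimmomatic, TopHat2 2.1.0 and HTSeq 0.6.1 on TAIR10, per the submitters' processing notes, which also name edgeR. Neither the strand setting nor the annotation is named, both being not given in the sources used here. The table held 33602 gene IDs, of which 32835 were named from RefSeq TAIR10.1. Its 5 summary lines were left out. Of these, in the 12 libraries of the interaction, reads with several alignments came to 4.08% to 8.91% of the sum of all lines, reads on no feature to 0.775% to 1.37% and ambiguous reads to 0.773% to 1.37%, the rest being 0. Columns of per-sample values not used numbered 0.

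The 12 libraries were fitted in R 4.3.3 with edgeR 4.0.16 (filterByExpr, TMM, robust quasi-likelihood) without a replicate block. The interaction and each pairwise difference were contrasts of that fit, called at a Benjamini-Hochberg adjusted p under 0.05, with the SE taken from the F statistic. CPM use TMM-scaled library sizes. Where ref5-1 genotypes are shown, CPM were scaled over 18 libraries, and ref5-1 med5 against ref5-1 was fitted on its own 6 libraries, a comparison chosen after seeing the data. A gene was set apart when only wild type was called against all other genotypes. Named genes were the targeted genes, the 10 highest and 10 lowest interactions with at least 5 CPM in a genotype and no overlap in a pair, the 10 smallest adjusted p, up to 3 called genes per list, and the 6 genes set apart. The genes, lists and tests were chosen with earlier results of these data known. No libraries were duplicates of each other. The test was checked on simulated data (19502 genes), where 6.38% of calls were unchanged genes. Alternatives were DESeq2 1.42.0, limma-voom (limma 3.58.1), RLE scaling, other filters, 18 libraries, a replicate block and each library left out.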

Additional observations from a re-analysis of the deposited data

Results flagged for a closer look

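The difference in the ref2-1 effect between plants without and with MED5 was tested for every gene with edgeR's quasi-likelihood test, and the 200 genes past an adjusted p of 0.05 are results in which 2 groups respond differently to the same mutation. The 44 of them that are named have these interaction values, on the log2 scale, where a negative value means a lower ref2-1 change without MED5. Called genes outside the naming rule, such as WAG2 at 2.89 and AT5G28230 at −2.87, are left out. The strongest values given are those among named genes that were not set apart. The strongest negative values were −4.78 for AT5G35935, −3.44 for QQS, −3.13 for HO3, −2.40 for AT3G13310, −2.29 for AT2G39920, −2.04 for ESM1, −1.71 for KFB39, −1.63 for AT3G22060, −1.45 for RPS2 and −1.45 for LYK5. Smaller negative values were −1.29 for LZF1, −0.88 for FLS2, −0.86 for AT1G75900, −0.84 for CAT1, −0.84 for SAG101, −0.81 for MYB4, −0.62 for NYC1, −0.60 for ALDH2C4 and −0.60 for FER4. The strongest positive values were 4.55 for MLP34, 3.32 for MRD1, 2.89 for UGT74E2, 2.86 for ATL15, 2.28 for ASPGB1, 1.87 for AT4G11211, 1.85 for AT4G27570, 1.85 for AT2G05540, 1.51 for AT5G05960 and 1.48 for AT1G07450. Smaller positive values were 1.45 for AT3G27360, 1.33 for GH3.5, 1.14 for SAUR24, 1.11 for LTP6, 0.84 for IAA19, 0.82 for 4CL2, 0.79 for LTL1, 0.61 for LHY and 0.60 for CAD4. Where wild type alone differed, the values were −1.62 for AT1G64380, 0.60 for AT3G46320, 0.80 for AT4G21650, 0.93 for AT3G55240, 1.19 for AT1G05835 and 8.78 for AT3G01345.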

How the results depend on the processing

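All 200 genes kept the sign of their interaction in every alternative that tested them. The alternatives use the libraries that chose these genes, so the kept sign is in part built in. The number of calls depended more on the method. With DESeq2 the genes called for the interaction numbered 826, the genes called with a positive interaction 341 and the genes called with a negative interaction 485, with 41 genes set apart where only wild type differs and 768 genes given no adjusted p, and all 200 genes were among its calls. A fit with a replicate block called 567 genes, 278 positive and 289 negative, with 13 in which wild type alone differed, and all 200 were among them. Whether replicate numbers pair these libraries could not be settled. Deviations of same-numbered libraries correlated at −0.29 to 0.46, with a median of 0.10, against a median of −0.04 for other numbers. The value was over 0.1 in 9 of 18 same-numbered pairs, and 5 of 12 libraries correlated best with their own number. With all 18 libraries fitted, 149 genes were called, 123 of them among the 200, and 10 differed in wild type alone. Leaving out 1 library gave 39 to 650 calls, 18 to 322 positive, 20 to 328 negative and 2 to 31 in which wild type alone differed. An adjusted p under 0.01 left 24 genes, and an absolute log2 value of at least 1 left 60. Wild type outside the range of all mutant libraries held for 35. RLE scaling called 203, no filter 241, a filter of 1 CPM 230 and limma-voom 183. The causes were not tested. Of 44 named genes, 21 were called in all 12 fits that left out a library and 30 in all 7 other settings. The counts of negative genes lower and positive genes higher in ref5-1 med5 were 24 and 16 with DESeq2, 25 and 22 in the fit of 18 libraries, and 21 and 14 with the replicate block. With 3 libraries a genotype, interactions of 1.5-fold were mostly missed in simulated data.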

Other observations

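Values of 9 further called genes follow, which were picked singly after their values were seen and stand for no gene group. Unlike the named genes, these 9 were not followed singly through the fits that left out 1 library. How firm their calls are is thus not shown. SEX1, a glucan water dikinase that starts starch breakdown, averaged 148 CPM in ref2-1 med5 and 155 CPM in med5, and 239.6 CPM in ref2-1 and 150.0 CPM in wild type (interaction −0.74, adjusted p = 0.0176). SS4, a starch synthase of granule initiation, averaged 70.8 CPM in ref2-1 med5 and 80.6 CPM in med5, and 103 CPM in ref2-1 and 75.1 CPM in wild type (interaction −0.64, adjusted p = 0.0131). AMY3, a plastid amylase, averaged 140.0 CPM in ref2-1 med5 and 162 CPM in med5, and 184 CPM in ref2-1 and 141 CPM in wild type (interaction −0.59, adjusted p = 0.0326). These transcripts were highest in ref2-1. SUS1, a sucrose synthase, averaged 28.8 CPM in ref2-1 med5 and 42.3 CPM in med5, and 37.3 CPM in ref2-1 and 31.1 CPM in wild type (interaction −0.82, adjusted p = 0.0203). SUC2, the sucrose transporter of phloem loading, averaged 131 CPM in ref2-1 med5 and 182 CPM in med5, and 170.1 CPM in ref2-1 and 148 CPM in wild type (interaction −0.66, adjusted p = 0.024). The last 2 were highest in med5. CER1, an enzyme of wax alkane synthesis, averaged 71.0 CPM in ref2-1 med5 and 101 CPM in med5, and 41.4 CPM in ref2-1 and 94.6 CPM in wild type (interaction 0.69, adjusted p = 0.0313). ADS1, a fatty acid desaturase, averaged 26.4 CPM in ref2-1 med5 and 34.4 CPM in med5, and 7.56 CPM in ref2-1 and 25.5 CPM in wild type (interaction 1.37, adjusted p = 0.0429). PIP1B, a plasma membrane aquaporin, averaged 756 CPM in ref2-1 med5 and 784 CPM in med5, and 545 CPM in ref2-1 and 828 CPM in wild type (interaction 0.55, adjusted p = 0.0494). PIP1C, its close relative, averaged 210.5 CPM in ref2-1 med5 and 254 CPM in med5, and 146 CPM in ref2-1 and 267 CPM in wild type (interaction 0.60, adjusted p = 0.0147). The last 4 were lowest in ref2-1.

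Histone genes, also picked after their values were seen, had interactions mostly above 0. Of 42 tested histone genes, 41 had an interaction above 0 and 8 were called, all positive (0.575% of all tested genes were). The median interaction was 0.43, from a median ref2-1 change of 0.17 without MED5 and −0.31 with it. Many of these genes are near-identical copies, so that reads are split among them with uncertainty and they are not independent of each other.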
